A study of Mus musculus with 9 samples.

Results

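The genes described here encode the nuclear part of the mitochondrial respiratory chain and of ATP synthase. They were chosen by name alone, as protein-coding genes whose symbol starts with Nduf, Uqcr, Atp5, Cox4, Cox5, Cox6, Cox7 or Cox8, together with Sdha, Sdhb, Sdhc, Sdhd and Cyc1. The rule found 94 of the 49548 genes in the tables, of which 46 belong to complex I by name, 4 to complex II, 9 to complex III, 18 to complex IV and 17 to complex V. Of these genes 84 encode subunits, and the other 10 (the Ndufaf genes, Atp5s and Atp5sl) encode assembly factors or related proteins that the naming rule brings in. Messenger RNA was read by 3′ sequencing in cultured synovial fibroblasts (SFs) from the ankle joints of 8-week-old mice on a CBA and C57BL/6J background, as 3 libraries of WT SFs, 3 of untreated hTNFtg SFs and 3 of hTNFtg SFs given infliximab at 1 µg/mL for 48 hours. hTNFtg mice carry a human TNF transgene and develop destructive polyarthritis, and infliximab is an antibody that neutralizes human TNF. By the labels WT and untreated hTNFtg SFs received nothing, and by the methods they received vehicle. CD45+ cells had been removed from all cultures at passage 1. The comparisons ask what the transgene and the antibody change in SFs.

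The respiratory chain sits in the inner mitochondrial membrane. Complex I (NADH dehydrogenase) and complex II (succinate dehydrogenase) pass electrons to ubiquinone, complex III (cytochrome bc1) passes them on to cytochrome c, and complex IV (cytochrome c oxidase) hands them to oxygen, while ATP synthase, or complex V, uses the resulting proton gradient to make ATP. Most subunits are encoded in the nucleus and the catalytic centres of several complexes in mitochondrial DNA. The deposited values hold no genes of the mitochondrial chromosome, so these could not be analysed here. Activated SFs in arthritis are known for a shift of their energy metabolism towards glycolysis, and levels of messenger RNA say nothing of enzyme activity.

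Values are normalized counts, that is, the authors' read counts scaled by library. The libraries held about 4521051 to 6525912 reads on genes in WT SFs, 613351, 4790009 and 9015588 in untreated hTNFtg SFs and 3829182 to 5662568 with infliximab. hTNFtg replicate 1 thus stood apart, with 6.24 to 14.7 times fewer reads than the others, and a gene of 3 reads stood at 18.7 normalized counts there against 1.60 to 3.31 elsewhere. All 10 fibroblast markers were above a mean of 10, and Col1a1, a collagen chain, read 12251 to 23868 in the 9 libraries. The 5 endothelial markers summed to 2 to 11, with Pecam1 at 0 to 2. The 5 leukocyte markers summed to 0 to 3 in WT, 18 to 31 in hTNFtg and 8 to 31 in treated SFs, mostly from Ptprc (CD45) and with S100a8 at 0 to 9, while Cd3e and Ly6g were at 0 throughout. The 7 macrophage markers summed to 169 to 523 in WT SFs, 2669 to 5859 in hTNFtg SFs and 1659 to 3215 with infliximab, with 6 of the 7 at a mean of at least 10 and Cd163 at 0 to 3. The 5 chondrocyte markers summed to 6202 to 9330, 548 to 1212 and 906 to 2517 in the same order, most of it from Comp and Sox9. The part of these lists in the comparisons below was not tested. A smaller share of cells that hold a transcript and less of it per cell cannot be told apart in such libraries.

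Nearly all respiratory chain genes were detected. Of the 94 genes 89 were above 0 in every library, and 2 (Cox7b2 and Cox8c, whose products are isoforms known from testis) were at 0 in all 9. In all, 12 genes had a mean over 1000 normalized counts, 63 a mean of 100 to 1000, 14 a mean of 10 to 100 and 3 a mean between 0 and 10. In 3′ sequencing a transcript is read near its end, so these levels were compared between genes without dividing by length. Together the 94 genes took 1.08% to 1.59% of the normalized counts of a library. The highest was Atp5g3, which encodes the c subunit that forms the rotating ring of ATP synthase, with a mean of 6007 that made up 36.5% of the complex V sum. Ndufb3, an accessory subunit of the membrane arm, led complex I with a mean of 3435, and Cox8a, a small subunit of cytochrome c oxidase, led complex IV with 1993. Uqcrh, the hinge protein beside cytochrome c1, led complex III with 1739. Its processed pseudogene Uqcrh-ps2 read 2255 in hTNFtg replicate 1, where Uqcrh was at 3955, and 241 to 359 elsewhere. Whether both share reads was not tested. Sdhc, a membrane anchor, led complex II with 672, followed by the flavoprotein Sdha with 436.

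The sequences before the start sites of these leading genes are shown because such promoters are known for sites of NRF1 and of ETS factors of the GABP type. RefSeq promoters of the build GRCm38.p6 were found by symbol for 74 of the 94 genes. Ndufa4l2 and Sdhc were not among them. Each line gives the 250 bases that end just before the start site, on the gene's strand, with matches on either strand in capitals to the core of the NRF1 motif (a near-palindrome of 10 bases with 1 of them free, as the capitals in Sdha show it) and to 3 shorter motifs. That of ETS factors was searched as CCGGAAG. The box bound by NF-Y was searched as CCAAT. The TATA box was searched as TATAAA. No matches overlap in these 5 sequences. Ndufb3 lies at chr1:58586147-58586396 on the plus strand. On the minus strand lie Sdha at chr13:74350241-74350490, Uqcrh at chr4:116075071-116075320, Cox8a at chr19:7217617-7217866 and Atp5g3 at chr2:73911327-73911576.
Ndufb3: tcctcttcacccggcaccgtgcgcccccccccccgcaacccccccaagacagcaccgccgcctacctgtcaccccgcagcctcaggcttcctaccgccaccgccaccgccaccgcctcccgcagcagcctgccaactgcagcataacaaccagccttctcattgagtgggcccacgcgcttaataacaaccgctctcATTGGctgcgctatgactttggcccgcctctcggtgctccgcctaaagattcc
Sdha: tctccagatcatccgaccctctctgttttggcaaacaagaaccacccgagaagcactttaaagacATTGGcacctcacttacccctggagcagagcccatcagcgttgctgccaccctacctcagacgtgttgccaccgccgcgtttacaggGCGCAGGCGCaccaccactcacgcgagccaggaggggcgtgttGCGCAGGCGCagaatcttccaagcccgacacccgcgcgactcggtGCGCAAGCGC
Uqcrh: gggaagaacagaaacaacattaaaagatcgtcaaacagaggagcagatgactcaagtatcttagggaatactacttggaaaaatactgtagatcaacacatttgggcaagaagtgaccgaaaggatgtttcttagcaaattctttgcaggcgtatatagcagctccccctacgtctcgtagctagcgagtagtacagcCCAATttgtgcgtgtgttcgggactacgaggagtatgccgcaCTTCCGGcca
Cox8a: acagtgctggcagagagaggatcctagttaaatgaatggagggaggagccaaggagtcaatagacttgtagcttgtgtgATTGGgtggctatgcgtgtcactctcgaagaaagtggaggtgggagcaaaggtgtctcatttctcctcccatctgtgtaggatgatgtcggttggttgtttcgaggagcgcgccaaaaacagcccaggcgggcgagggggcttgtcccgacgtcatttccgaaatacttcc
Atp5g3: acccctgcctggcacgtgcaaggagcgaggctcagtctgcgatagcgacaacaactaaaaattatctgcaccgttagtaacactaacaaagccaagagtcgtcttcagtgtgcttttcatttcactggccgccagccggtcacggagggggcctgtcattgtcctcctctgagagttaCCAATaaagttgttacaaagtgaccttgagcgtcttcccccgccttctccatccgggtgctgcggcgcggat
All 5 sequences hold the CCAAT letters on one strand or the other and none holds TATAAA. Sdha has 3 matches to the NRF1 letters, which begin 98, 55 and 10 bases before the start, and Uqcrh has an ETS match 10 bases before it. Over the 74 promoters 13 (17.6%) held the NRF1 letters, against 5.5% of the 16220 promoters of protein-coding genes in the tables. The ETS letters were also in 13 of the 74 (17.6%, against 9.51%), the CCAAT letters in 33 (44.6%, against 36%) and TATAAA in 6 (8.11%, against 11.9%). The median GC content was 56.4% in these promoters and 56% in all. These are matches of letters, with no measurement of binding.

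A single gene of the set passed the study's rule with an adjusted p-value under 0.05 in any comparison. This was Ndufa4l2 (chr10:127514939-127517152 in mm10, plus strand), a paralogue of Ndufa4 known as a target of the hypoxia factor HIF-1. It read 216, 336 and 239 normalized counts in WT replicates 1 to 3, 635, 515 and 456 in untreated hTNFtg SFs and 654, 569 and 715 with infliximab. All 6 hTNFtg libraries, treated or not, lay above the 3 WT libraries, and the treated and untreated libraries overlapped. The mean was 264 ± 64 (SD, n = 3) in WT, 535 ± 91 in hTNFtg and 646 ± 73 in infliximab-treated SFs. Against WT the difference was 2.03-fold in untreated SFs, with a log2 fold change of 1.03 ± 0.30 (SE), adjusted p = 0.233 in limma. In infliximab-treated SFs it was 2.45-fold, with a log2 fold change of 1.31 ± 0.21, adjusted p = 0.0293 in limma. Infliximab-treated and untreated hTNFtg SFs differed by 0.28 ± 0.28 in log2 (adjusted p = 0.803 in limma). The untreated call against WT fell below the study's rule without WT replicate 1 (log2 fold change 0.90), WT replicate 3 (0.97) or hTNFtg replicate 1 (0.90). It was also lost with array quality weights or edgeR. In treated SFs the adjusted p was no longer under 0.05 when any of the 6 libraries was left out. The same held with a replicate block or when all 9 libraries were fitted together.

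These values cannot be assigned to Ndufa4l2, because a neighbouring gene has the same ones. Shmt2, which encodes the mitochondrial serine hydroxymethyltransferase of one-carbon metabolism, lies on the opposite strand at chr10:127517123-127522444, and the 3′ ends of both genes overlap by 30 bases. Its normalized counts were 216, 339 and 239 in WT, 635, 515 and 456 in hTNFtg and 654, 569 and 716 with infliximab. They were equal to those of Ndufa4l2 in 7 of 9 libraries and differed by 0.0923% of the summed counts over all 9. In the same fits Shmt2 had log2 fold changes of 1.03 ± 0.30 in hTNFtg against WT and 1.31 ± 0.21 in infliximab-treated SFs against WT (adjusted p = 0.0306 in limma). From the tables it cannot be told apart which of the genes changed.

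The same was seen for 5 further members, all with a gene on the opposite strand within 1000 bases whose counts differed by at most 10% in sum. Cox6a2, the heart and muscle isoform of subunit VIa, lies within Itgad and had its counts in all 9 libraries, from 0 in hTNFtg replicate 1 to 35 in WT replicate 1. Ndufa2, an accessory subunit of complex I, had the counts of Tmco6 in all 9, from 679 to 2108. Ndufaf3, an assembly factor of complex I, differed from Impdh2, an enzyme of guanine nucleotide synthesis, by 0.894%, with 98 to 143 counts per library. Cox8b, the muscle isoform of subunit VIII, does not overlap the proteasome gene Psmd13, whose end lies 301 bases away, yet its counts were within 1.91% of Psmd13's, with 293 to 1780 per library. Ndufb6, an accessory subunit, was within 6.76% of Toporsos. Just outside the limit were Uqcrc2, a core protein of complex III (12.4% from Pdzd9), and Ndufb10 (14.0% from the ribosomal protein gene Rps2). The muscle isoforms Cox6a2 and Cox8b were thus counted here in SFs with the same or nearly the same values as a neighbour. The list of 10 skeletal muscle markers summed to 111 to 551 per library, mostly from Actn3 at 87 to 463, with 3 of the 10 at a mean of at least 10 and Myh4 at 0 throughout, and its part in these counts was not tested.

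**Figure D1:**
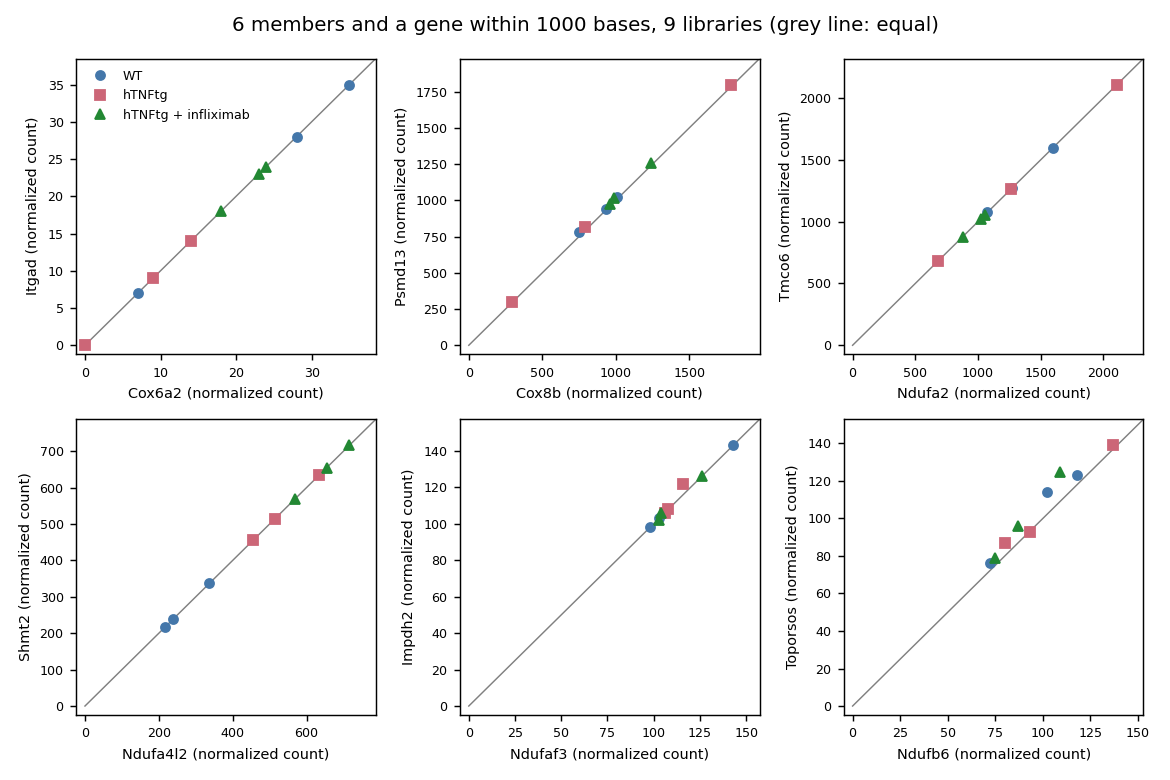
Normalized counts of 6 respiratory chain genes (horizontal axes) against those of a gene within 1000 bases on the other strand (vertical axes), with 1 point per library, coloured by group, and a grey line of equal values. The points lie on the line for Cox6a2 and Ndufa2, within 0.0923% of it in sum for Ndufa4l2 and within 6.76% for Ndufb6.

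In untreated hTNFtg against WT SFs, few respiratory chain genes passed the test, and the genes that did were Ndufa4l2 and a gene near the detection limit. The median log2 fold change of the 92 members above 0 was 0.01, against 0.00 for all 28522 genes tested, and 48 were higher and 44 lower. The study called a gene changed where its fold change was 2 or more in either direction with P under 0.05 before adjustment. By this rule 2 members were raised and 0 lowered, where 3.35% of all genes were raised and 3.04% lowered. At P under 0.05 there were the same 2 of 92 (7.72% of all genes), and none had an adjusted p under 0.05 in limma (0.48% of all genes) or in edgeR (3.21%). The genes raised were Ndufa4l2, described above, and Cox7a1, the heart and muscle isoform of subunit VIIa. Cox7a1 read 0, 4 and 1 in WT and 12, 4 and 9 in hTNFtg SFs, so the groups touched at 4 and the 12 of hTNFtg replicate 1 is under the 3-read level of that library. Its log2 fold change was 2.01 ± 0.91 (adjusted p = 0.639 in limma). This call was lost without WT replicate 1 (1.45), WT replicate 3 (1.95), hTNFtg replicate 1 (1.71) or hTNFtg replicate 3 (1.90). Of the 9 alternatives that kept all libraries and tested this gene, 3 kept the call. It was lost with both other pseudocounts, quantile normalization, array quality weights, the replicate block and edgeR. The alternative with a minimum mean left the gene out.

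Complex by complex, the median log2 fold change in hTNFtg against WT SFs was -0.02 for complex I, -0.23 for complex II, 0.39 for complex III, 0.04 for complex IV and -0.01 for complex V. All 9 complex III genes had a mean log2 fold change above 0, from 0.10 for Uqcrb to 0.44 for Uqcrc1, and 0 of the 9 had a P under 0.05. Cyc1, the cytochrome c1 of this complex, read 139, 106 and 90 in WT and 181, 122 and 145 in hTNFtg SFs, so that the groups overlapped. Uqcrfs1, the Rieske iron-sulphur protein, read 355, 212 and 216 in WT and 698, 349 and 93 in hTNFtg SFs, where hTNFtg held both the highest and the lowest value. Without hTNFtg replicate 1, Uqcrb turned to -0.29, Uqcrfs1 to -0.49, Uqcrc2 to -0.14 and Uqcrh to -0.07. Uqcrb was also at -0.07 without hTNFtg replicate 2. Cyc1, Uqcr10, Uqcr11, Uqcrc1 and Uqcrq stayed above 0 with each library left out. Uqcrc1 was at 0.14 without hTNFtg replicate 3 and at up to 0.67 without another library. Under the alternatives that kept all libraries Uqcrc1 came down to 0.034.

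In all, 5 of the 92 members had groups that did not overlap in hTNFtg against WT SFs. Ndufa12 and Ndufa4l2 lay above every WT library, where 5.63% of all genes did (8.88% of genes with a mean of at least 100), and Ndufa1, Ndufaf5 and Ndufaf8 lay below, where 5.8% did (9.5% of the higher genes). Ndufa12, an accessory subunit of the NADH-oxidizing part, read 175, 259 and 265 in WT and 286, 307 and 314 in hTNFtg SFs. Ndufa1, an X-linked accessory subunit, read 603, 482 and 487 against 374, 390 and 307. Ndufaf5, an assembly factor, had the most negative log2 fold change of complex I (-0.81 ± 0.50, adjusted p = 0.726 in limma) at low counts of 29, 27 and 42 against 25, 15 and 15. With each library left out it ranged from -1.05 without hTNFtg replicate 1, where it passed the study's rule, to -0.62 without WT replicate 3. With all libraries the share of members that did not overlap was below that of all genes in both directions. Leaving out 1 library gave 3 to 8 members above and 4 to 7 below, and without WT replicate 1 the share above (8.70%) was no longer under that of all genes (7.99%).

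Of the extremes of the other complexes Cox7a1, described above, passed the study's rule. In complex II the range went from Sdhd, a membrane anchor (-0.56 ± 0.43, and 0.0096 without hTNFtg replicate 3), to Sdha (0.18 ± 0.34), which fell to -0.14 without hTNFtg replicate 1. In complex IV, Cox5a, a subunit on the matrix side, came next after Cox7a1 and read 248, 349 and 347 in WT and 847, 330 and 547 in hTNFtg SFs (log2 fold change 0.78 ± 0.36, adjusted p = 0.665 in limma). With each library left out Cox5a ranged from 0.45 without hTNFtg replicate 1 to 1.13 without hTNFtg replicate 2, where it passed the study's rule, and with array quality weights it was at 0.22. Cox6a2 had the most negative value of complex IV (-1.93 ± 1.07, adjusted p = 0.726 in limma), with the counts of Itgad and 0 reads in the shallow library, without which it was at -0.73. In complex V the range went from Atp5g2, a further gene for the c subunit (-0.45 ± 0.33), to Atp5j2, the f subunit of the membrane part (0.52 ± 0.41). Atp5g2 was at -0.24 without hTNFtg replicate 3, and Atp5j2 at 0.14 without WT replicate 1. Under the alternatives that kept all libraries Atp5j2 came down to 0.065, and Atp5g2 ranged from -0.52 to -0.41.

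Between infliximab-treated and untreated hTNFtg SFs 0 members passed the study's rule, and of 6 that differed at P under 0.05, 5 were lower with the antibody, Ndufa4, Atp5j2 and Cox5a among them, a split that did not hold without some of the libraries. The median log2 fold change of the 92 members was -0.04, against 0.00 for all 28540 genes tested. By the study's rule 0 members were raised (1.49% of all genes) and 0 lowered (0.936%). At P under 0.05 there were 6 of 92 members (3.59% of all genes), of which 5 were lower with infliximab (1.44% of all genes) and 1 higher (2.16%), and in limma the adjusted p was under 0.05 for 0 of all genes. edgeR on approximate reads also gave 6 members at P under 0.05 and 0 with an adjusted p under 0.05, but there 6.08% of all genes were at P under 0.05, near the members' 6 of 92, and 0.578% had an adjusted p under 0.05. With array quality weights there were 12 members at P under 0.05, of which 8 were lower and 4 higher, and 0 with an adjusted p under 0.05. Of all genes 16.1% were then at P under 0.05 (10.6% lower and 5.51% higher), so the members' 12 of 92 did not exceed that share. By the study's rule 735 of all genes were then raised and 1390 lowered, against 426 and 267 in the main fit. Without hTNFtg replicate 1 there were 16 members at P under 0.05, of which 13 were lower and 3 higher. Over all genes the share at P under 0.05 was then also larger, at 7.85% (4.76% lower and 3.1% higher). Without hTNFtg replicate 3 the direction turned, with 4 of 7 members higher and 3 lower (4.01% and 2.48% of all genes), and without hTNFtg replicate 2 there were 2 higher and 5 lower (2.92% and 2.02%). Without infliximab replicate 1 or 2 there was 1 member in each direction and without infliximab replicate 3 only 1, which was lower, with 1.8% to 2.42% of all genes at P under 0.05 in either direction.

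The 5 members that were lower with infliximab at P under 0.05 belong to 3 complexes. Ndufa4, which was named for complex I and is now known as a subunit of complex IV, read 187, 116 and 90 in untreated and 85, 60 and 56 in treated SFs. Its treated libraries all lay below the untreated ones, with a log2 fold change of -0.91 ± 0.36 (adjusted p = 0.803 in limma). Atp5j2 read 835, 641 and 1408 untreated and 458, 583 and 466 treated, again without overlap (-0.86 ± 0.33, adjusted p = 0.803 in limma). Cox5a read 847, 330 and 547 untreated and 302, 293 and 332 treated, where the highest treated library passed the lowest untreated one by 2 counts (-0.79 ± 0.34, adjusted p = 0.803 in limma). Ndufa3, a small accessory subunit, read 511, 411 and 752 untreated and 341, 324 and 343 treated (-0.68 ± 0.29, adjusted p = 0.803 in limma). Ndufa10, another accessory subunit, read 187, 206 and 218 untreated and 125, 124 and 134 treated (-0.67 ± 0.27, adjusted p = 0.803 in limma). These values moved with the untreated libraries. With each library left out Ndufa4 ranged from -1.15 without hTNFtg replicate 3 to -0.63 without hTNFtg replicate 1, Cox5a from -1.14 without hTNFtg replicate 2 to -0.46 without hTNFtg replicate 1, Atp5j2 from -1.12 without hTNFtg replicate 2 to -0.55 without hTNFtg replicate 3, Ndufa3 from -0.88 without hTNFtg replicate 2 to -0.45 without hTNFtg replicate 3 and Ndufa10 from -0.73 to -0.62. At the lower end Ndufa4, Cox5a and Atp5j2 passed the study's rule, and Ndufa4 also did at -1.10 without infliximab replicate 1. Under the alternatives that kept all libraries Cox5a went up to -0.25, Atp5j2 to -0.45 and Ndufa3 to -0.39. Ndufa4 went up to -0.81 and Ndufa10 to -0.64.

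The member that was higher with infliximab at P under 0.05 was Ndufaf8, an assembly factor of complex I. It read 393, 318 and 267 in WT, 174, 240 and 247 in untreated hTNFtg SFs and 361, 345 and 387 with infliximab. The untreated hTNFtg libraries lay below all others, and the treated libraries overlapped with WT. The log2 fold change was 0.74 ± 0.27 (adjusted p = 0.803 in limma) for treated against untreated SFs and -0.56 ± 0.30 (adjusted p = 0.726 in limma) for untreated against WT SFs. With each library left out these ranged from 0.58 to 0.83 and from -0.70 to -0.40. The comparisons share the untreated hTNFtg libraries, so a low value there moves both.

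Of the 92 members, 12 (13.04%) lay below every untreated library with infliximab, where 3.44% of all genes did, and 4 (4.35%) lay above, where 3.99% did. Among genes with a mean of at least 100 over these libraries the figures were 10 of 74 members below (13.5%, against 6.53% of all such genes) and 2 above (2.70%, against 8.26%). The 12 below were Ndufa3, Ndufa4, Ndufa10, Ndufa12, Ndufaf7, Ndufb2, Ndufb5, Ndufb10, Ndufc1 and Ndufs5 of complex I, Cox7a2l of complex IV and Atp5j2 of complex V. Thus 10 of the 46 genes assigned to complex I by name (21.7%) were on this list, Ndufa4 and the assembly factor Ndufaf7 among them. Cox7a2l, which takes part in joining complexes III and IV into supercomplexes, read 1675, 1760 and 2727 untreated and 1396, 1367 and 1315 treated (log2 fold change -0.56 ± 0.33, adjusted p = 0.803 in limma), and was at -0.34 without hTNFtg replicate 3. Ndufs5, an accessory subunit, read 193, 163 and 151 untreated and 103, 142 and 112 treated (-0.51 ± 0.29, adjusted p = 0.803 in limma). The 4 above were Sdhb, Ndufaf8, Cox6a2 and Cox6b2, of which Cox6a2 again carries the counts of Itgad.

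Among subunits of the catalytic core of complex I, 6 were looked at, and 0 of these had a P under 0.05 in any comparison, where 7.72% (hTNFtg against WT), 3.59% (treated against untreated) and 11.9% (treated against WT) of all genes had one. A count of 0 of 6 is near these shares. They were Ndufs1, Ndufs3, Ndufs7, Ndufs8, Ndufv1 and Ndufv2, a group taken from textbook knowledge after the values had been seen. Their log2 fold changes with infliximab went from -0.37 for Ndufs3 to 0.12 for Ndufs8, and in hTNFtg against WT SFs from -0.02 for Ndufv2 to 0.06 for Ndufs3. Ndufs1, which holds iron-sulphur clusters of the electron path, read 106, 96 and 118 in WT, 100, 111 and 108 in hTNFtg and 109, 112 and 108 in treated SFs. The difference between core and accessory subunits was not tested.

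In complex II, 3 of the 4 genes had positive log2 fold changes with infliximab. Sdhb, the iron-sulphur subunit, read 262, 339 and 360 in untreated and 446, 515 and 426 in treated SFs, without overlap (0.54 ± 0.27, adjusted p = 0.803 in limma). Sdhc read 1165, 646 and 113 untreated and 720, 912 and 631 treated (0.76 ± 0.62, adjusted p = 0.803 in limma), and Sdhd 262, 218 and 73 untreated and 333, 246 and 183 treated (0.61 ± 0.43, adjusted p = 0.803 in limma). For both anchors hTNFtg replicate 3 was the lowest of all libraries, and without it Sdhc was at -0.22 and Sdhd at 0.045. Sdha read 716, 415 and 326 untreated and 416, 408 and 424 treated (-0.14 ± 0.32), and turned to 0.18 without hTNFtg replicate 1. In complex III the range with infliximab went from -0.74 ± 0.42 for Uqcrh to 0.13 ± 0.27 for Uqcr11. Uqcrh passed the study's rule without hTNFtg replicate 2 (-1.17) and was at -0.28 without hTNFtg replicate 1. Under the alternatives that kept all libraries Uqcrh went up to -0.059. In complexes IV and V the most positive values were those of Cox6a2 (2.08 ± 0.97, adjusted p = 0.803 in limma, at counts of 0, 14 and 9 against 18, 23 and 24) and of Atp5sl (0.66 ± 0.45). Without hTNFtg replicate 1 they were at 0.88 and 0.24, and without hTNFtg replicate 2 at 2.83 and 1.01.

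**Figure D2:**
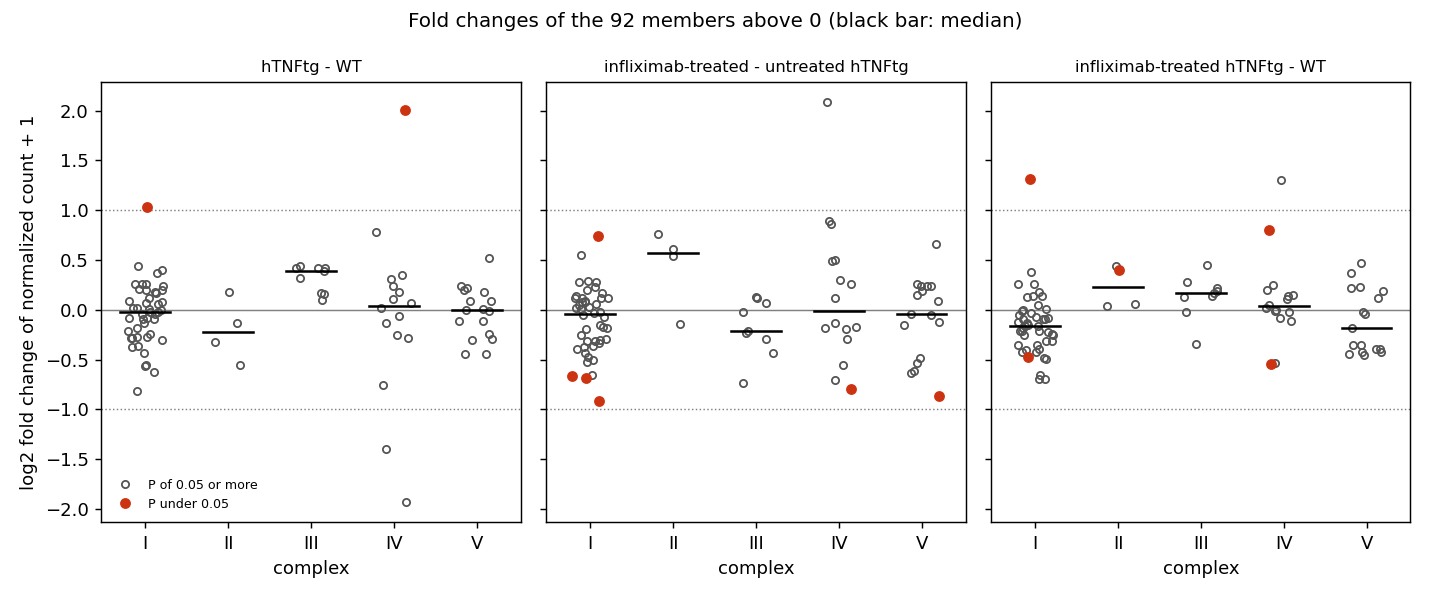
Log2 fold changes of the 92 respiratory chain genes above 0, by complex, in the 3 comparisons, with 1 circle per gene, filled red where the unadjusted limma P is under 0.05, a black bar at the median of the complex and dotted lines at -1 and 1. The medians lie between -0.23 and 0.57, and 2, 6 and 5 genes are filled from left to right.

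Infliximab-treated hTNFtg SFs were also compared with WT SFs. The median log2 fold change of the members was -0.07, against 0.00 for all 28243 genes tested. Of the members 36 were above and 56 below 0, and of all genes 13516 and 14727. By the study's rule 1 member (Ndufa4l2) was raised, where 3.86% of all genes were, and 0 lowered, where 2.95% were. At P under 0.05 there were 5 of 92 (11.9% of all genes), and Ndufa4l2 alone had an adjusted p under 0.05 in limma (0.74% of all genes). Without WT replicate 1 there were 27 members at P under 0.05, 8 higher and 19 lower, with 8.41% and 8.63% of all genes. There were 14 with array quality weights (5 higher and 9 lower) and 1, which was higher, with all 9 libraries in 1 fit. The shares of all genes at P under 0.05 were 15.5% with these weights (7.85% higher and 7.63% lower) and 7.75% in that fit. By the study's rule 1319 of all genes were raised and 982 lowered with these weights. The counts were 892 and 632 in that fit, against 1090 and 833 in the main fit. With edgeR there were 2 members with an adjusted p under 0.05, Ndufa4l2 and Ndufa5, an accessory subunit, where 4.69% of all genes had one, and with robust eBayes 2, Ndufa4l2 and Cox8a, where 4.19% of all genes had one. The others at P under 0.05 in limma were Sdhb and Cox8a, which were higher, and Ndufa10 and Cox7a2l, which were lower. Cox8a read 2254, 1269 and 882 in WT and 2516, 2176 and 2448 in treated SFs, where WT replicate 1 lay within the treated values (0.80 ± 0.31, adjusted p = 0.324 in limma), and ranged from 0.49 without WT replicate 3 to 1.17 without WT replicate 1, where it passed the study's rule. Cox7a2l read 1632, 2263 and 2104 in WT, all above its treated values (-0.54 ± 0.19, adjusted p = 0.274 in limma). Sdhb read 337, 389 and 322 in WT, all below its treated values (0.40 ± 0.17, adjusted p = 0.395 in limma). Ndufa10 read 168, 212 and 156 in WT, all above its treated values (-0.47 ± 0.19, adjusted p = 0.371 in limma).

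In this comparison 13 members (14.1%) lay below every WT library, against 7.07% of all genes, and 3 (3.26%) above, against 7.14%. Among genes with a mean of at least 100 there were 10 of 73 members below (13.7%, against 14.5% of such genes) and 3 above (4.11%, against 11.5%). Again 10 of the 13 were complex I genes by name. Of the 46 complex I genes 36 had a log2 fold change below 0, with a median of -0.16. Below 0 were also 14727 of all 28243 genes tested, and 3167 of the 5991 with a mean of at least 100, whose median was -0.02. At P under 0.05 there were 2 of the 46, Ndufa10 lower and Ndufa4l2 higher, where 11.9% of all genes were. Without WT replicate 1 there were 35 members below every WT library, with 14.4% of all genes. The treated libraries are shared with the comparison to untreated SFs, so these lists are not independent of each other.

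Summed over the genes of a complex, the treated libraries were lowest for complex I, and the other complexes overlapped between most groups. Complex I summed to 18278, 19684 and 19784 in WT, 18278, 18292 and 21636 in hTNFtg and 17460, 17616 and 16298 in treated SFs, so that the 3 treated libraries lay below the other 6 in normalized counts. As a share of all normalized counts of a library, a scale added after the sums were seen, complex I took 0.417% to 0.456% in WT, 0.446% to 0.479% in hTNFtg and 0.39% to 0.428% in treated SFs, so that on this scale the treated libraries lay below the untreated ones and overlapped with WT. The treated mean of 17125 ± 720 (SD, n = 3) differed by -11.7% from that of untreated hTNFtg SFs (19402 ± 1935) and by -11.03% from that of WT SFs (19249 ± 842). Much of the difference from untreated SFs rests on hTNFtg replicate 3 (21636), and it is smaller without that library. Complex II overlapped between all groups, at 1241 to 2096 in WT, 872 to 2405 in hTNFtg and 1664 to 2081 in treated SFs. Complex III summed to 3887 to 4181 in WT and 3855 to 4144 in treated SFs, and to 7587, 4176 and 4906 in hTNFtg SFs, where Uqcrh with 3955 in replicate 1 made up much of the highest value. The treated libraries all lay below the untreated ones for complex III, with a difference of -28.2% between the means. Much of this difference rests on hTNFtg replicate 1 (7587), and it is smaller without that library. Complex IV summed to 9021 to 10226, 9477 to 12657 and 10111 to 10411, and complex V to 15873 to 17388, 14387 to 19682 and 15835 to 16409, in the order WT, hTNFtg and treated. The sums of complexes IV and V overlapped between all 3 groups. As shares of the library, complex IV was at 0.246% in each treated library and at 0.208% to 0.234% in WT, and complex III at 0.102% to 0.199% in hTNFtg and at 0.0888% to 0.0935% in WT, without overlap in either case, so the order of groups differs between the scales. No test was made on these sums.

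**Figure D3:**
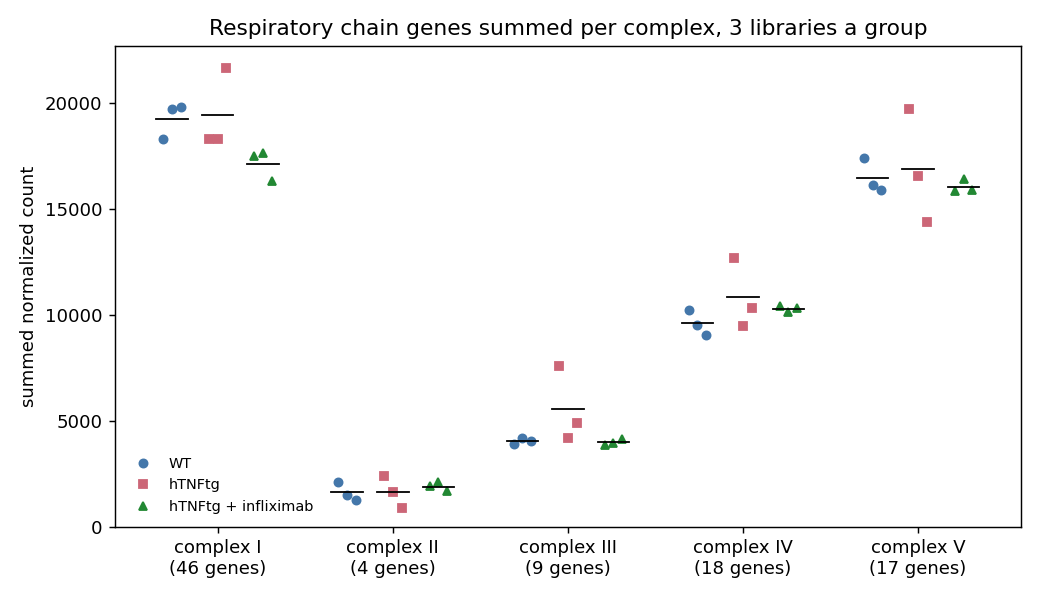
Summed normalized counts of the genes of each complex (vertical axis, from 0), with 1 point per library, coloured by group, and a bar at the group mean. The treated libraries are the lowest for complex I (16298 to 17616), and the untreated hTNFtg libraries spread most, from 14387 to 19682 for complex V.

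The untreated hTNFtg libraries spread most among themselves. Over the 75 members with a mean of at least 100, the highest library of a group was a median of 1.67 times the lowest in untreated hTNFtg SFs, 1.46 times in WT and 1.23 times with infliximab. It was over 2 times for 30 of 75 members in hTNFtg, 9 in WT and 0 in treated SFs. hTNFtg replicate 1 held the highest of all 9 values for 21 members and the lowest for 17, and replicate 3 the highest for 24 and the lowest for 18. For 9 members (Ndufb3, Sdha, Sdhc, Uqcrb, Uqcrc2, Uqcrfs1, Cox8a, Atp5g3 and Atp5j) replicate 1 was the highest and replicate 3 the lowest of all, and for 10 (Ndufa2, Ndufa11, Ndufb8, Ndufs4, Ndufs6, Ndufv3, Uqcr10, Cox7a2, Cox8b and Atp5e) it was the reverse. Sdhc went from 1165 to 113, the widest spread, and Ndufs6, a zinc-binding accessory subunit, from 349 to 2905. Atp5g3 read 10034, 5749 and 2828. Genes of complexes I, III, IV and V were on both lists. These figures were computed for the members only, so they do not show whether the spread is particular to respiratory chain genes.

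The replicates were also set against those of the other groups. Across the 75 members, the log2 ratio of replicate 1 to replicate 3 in hTNFtg SFs had a Pearson correlation of 0.67 with that in WT SFs, with the same sign in 54 of 75, and of 0.32 with that in treated SFs, with the same sign in 43. Between WT and treated SFs the correlation was -0.06, with the same sign in 41 of 75. Sdhc, for example, read 1049, 472 and 338 in WT, and Ndufs6 716, 1428 and 1471. These are points across genes of the same libraries, which share depth and preparation, so no p is given. They too were computed for the members only. The lower depth of hTNFtg replicate 1 lies beside this pattern, and its part in it was not tested.

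**Figure D4:**
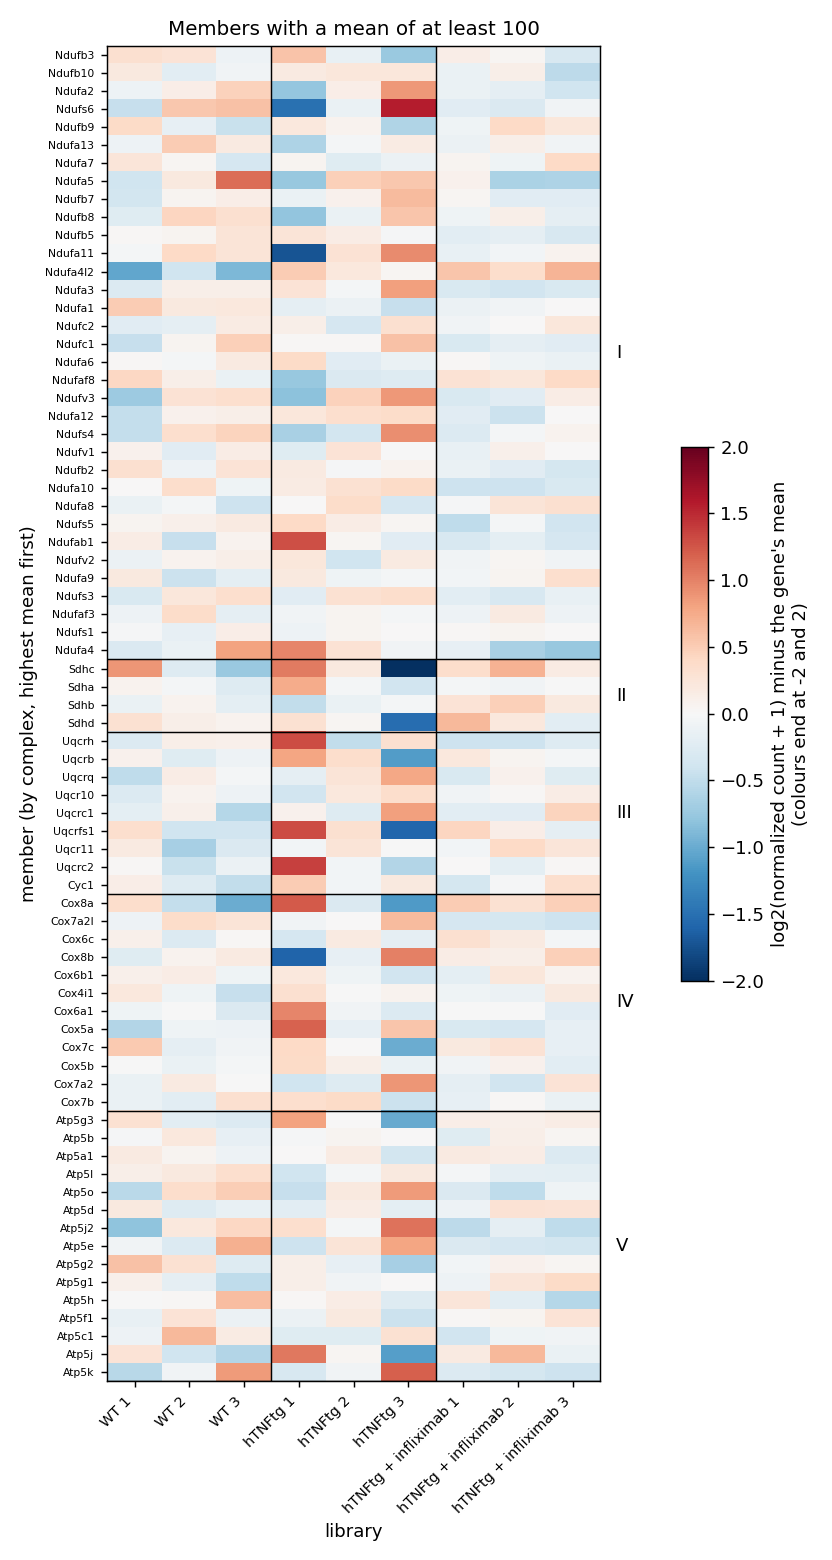
Log2 of the normalized count plus 1, minus the gene's mean over all libraries, for 74 of the 75 members with a mean of at least 100 (rows, by complex) in the 9 libraries (columns). hTNFtg replicates 1 and 3 have opposite colours for genes such as Sdhc and Ndufs6. Over all 75 members they hold the highest of the 9 values for 21 and 24 genes and the lowest for 17 and 18.

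Several subunits have isoforms, and the forms known as ubiquitous had the higher levels in SFs, apart from the sets of Cox8 and Ndufa4. In those sets Cox8b and Ndufa4l2 have nearly the counts of a neighbour. Cox4i1 read 560 to 959 in the 9 libraries, and Cox4i2, an isoform known from lung and from hypoxia, 0 to 13. Cox6a1 read 493 to 1196 against 0 to 35 for Cox6a2, which has the counts of Itgad. Cox6b1 read 620 to 940 against 17 to 61 for Cox6b2, an isoform known from testis. Cox6b2 read 19, 41 and 61 in WT, 25, 22 and 17 in hTNFtg and 31, 45 and 46 in treated SFs, where the treated libraries lay above the untreated ones (log2 fold change 0.89 ± 0.46, adjusted p = 0.803 in limma). Cox7a2 read 181 to 442 and Cox7a1 0 to 12, and Cox7b read 154 to 271 where Cox7b2 was at 0. Cox8a read 804 to 4142, with Cox8b at 293 to 1780 and Cox8c at 0. Cox8a and Cox8b moved in opposite directions between the hTNFtg libraries, with 4142, 1443 and 804 for Cox8a and 293, 791 and 1780 for Cox8b. The count of Cox8b is that of Psmd13 within 1.91%, so its level relative to Cox8a cannot be read from these tables. Ndufa4 read 56 to 187 and Ndufa4l2 216 to 715, the latter with the counts of Shmt2. The 3 genes for the c subunit of ATP synthase, which encode the same mature protein, read 2828 to 10034 for Atp5g3, 270 to 641 for Atp5g2 and 193 to 357 for Atp5g1. In each of the 9 libraries Atp5g3 was the highest of the 3.

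**Figure D5:**
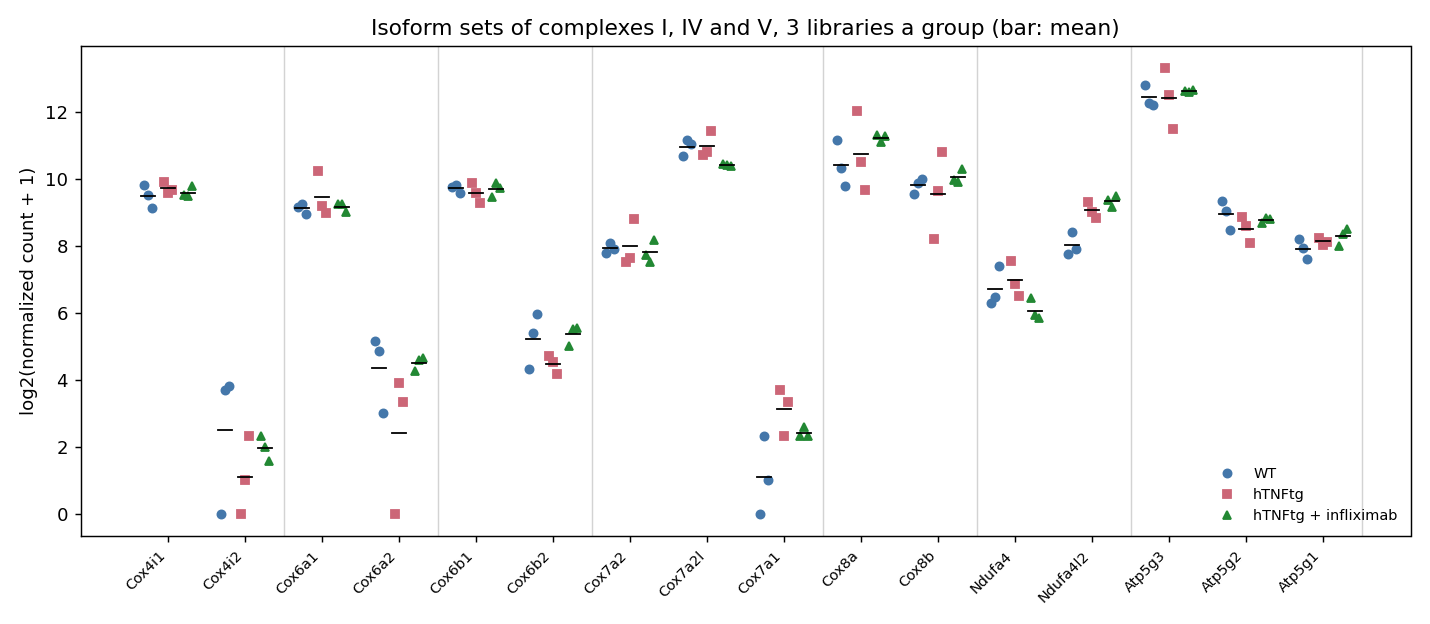
Log2 of the normalized count plus 1 for isoform sets of complexes I, IV and V, with 1 point per library, coloured by group, and a bar at the group mean. Cox4i2, Cox6a2, Cox6b2 and Cox7a1 lie below their partners in every library, and Cox8b and Ndufa4l2, which share the counts of a neighbour, do not.

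At the low end of each complex, Ndufaf6, an assembly factor, read 6 to 18, and Atp5s 3 to 16. Cyc1 was the lowest of complex III with a mean of 130 and Sdhd of complex II with 225. In all, 6 members above 0 somewhere were at or under 3 reads in hTNFtg replicate 1 (Ndufaf2, Ndufaf6, Cox4i2, Cox6a2, Cox7a1 and Atp5s), so that their values in that library rest on few reads.

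Genes that work beside the chain gave the following counts. Of 12 carriers, transporters and regulators, 10 were above 0 in hTNFtg or WT SFs. By the study's rule 1 of the 10 was raised and 0 lowered, where 3.35% of all genes were raised and 3.04% lowered, and 3 (Ucp2, Atpif1 and Cycs, 30% of the 10) lay above every WT library, where 5.63% of all genes did. The gene raised was Ucp2, a carrier of the inner membrane known from macrophages and other immune cells, which read 0, 4 and 4 in WT, 118, 53 and 52 in hTNFtg and 68, 47 and 39 in treated SFs. Its log2 fold change was 4.58 ± 0.79 (adjusted p = 0.0291 in limma) in untreated and 4.12 ± 0.67 (adjusted p = 0.0307 in limma) in treated SFs against WT, and -0.45 ± 0.42 (adjusted p = 0.803 in limma) between the treated and untreated. It was raised by the study's rule against WT whichever library was left out, but its adjusted p in limma was then 0.119 to 0.314 in untreated and 0.0819 to 0.345 in treated SFs. The macrophage markers moved beside it, with Lyz2 at 43 to 277 in WT, 2284 to 5356 in hTNFtg and 1277 to 2672 in treated SFs, and Ptprc (CD45) at 0 to 3, 9 to 31 and 8 to 28. The part of such cells in it was not tested. Of 35 assembly factors 0 were raised or lowered by the study's rule in any of the 3 comparisons. The shares of all genes raised and lowered, against which this and the counts of the next lists are to be read, were 3.35% and 3.04% in hTNFtg against WT, 1.49% and 0.936% in treated against untreated and 3.86% and 2.95% in treated SFs against WT, so that 0 or 1 in lists of this size is near the background. At P under 0.05 there were 0 in hTNFtg against WT, 0 in treated against untreated SFs and 6 in treated SFs against WT (3 higher and 3 lower, where 11.9% of all genes were at P under 0.05). Below every WT library lay 7 of them in hTNFtg SFs (20%, against 5.8% of all genes) and 6 in treated SFs (17.1%, against 7.07%), and above lay 2 (5.71%, against 5.63%) and 4 (11.4%, against 7.14%). Of 13 genes of the tricarboxylic acid cycle 0 passed the study's rule. Of 11 regulators of mitochondrial biogenesis 1 was lowered in hTNFtg against WT SFs, namely Tfb1m, a methyltransferase of mitochondrial ribosomal RNA, at 60, 35 and 59 against 19, 35 and 16 (log2 fold change -1.14 ± 0.47, adjusted p = 0.566 in limma), and 0 in the others.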

How the data were processed

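SFs of ankle joints were sequenced by 3′ mRNA sequencing (QuantSeq, Ion Proton) in 9 libraries, 3 per group. Per the methods, the authors mapped reads to mm10 with TopHat2, mapped the rest with Bowtie2, counted them per gene with GenomicRanges and normalized the counts by a method not given in the sources used here, with DESeq for the differential test, all through metaseqR; whether strand was used in counting is not given in the sources used here. The deposited values are a score, normalized counts rounded to whole numbers by the authors, in 2 tables with the same 3 untreated libraries. In hTNFtg replicate 1 the deposited signal is whole reads times a factor. The other 24 per-sample columns (log2 and rpgm forms) and the authors' fold changes, p-values and means were not used. Groups came from the labels.

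Reads per library were estimated from the steps between rounded values and are approximate. Groups were compared with limma 3.58.1 (lmFit, eBayes with trend) in R 4.3.3 on log2(normalized count + 1), leaving out genes at 0 in all 6 libraries, with Benjamini-Hochberg adjustment over all of them; fold changes on this scale understate those of low genes. The fits were tested on simulated data. Replicates are biological per the methods. Values of neighbouring genes within 1000 bases were compared, with a summed difference of at most 10% called near-equal. Promoter letters were searched in RefSeq sequences with Python 3.11.15.

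The members and lists were chosen with earlier results of these data known. Named genes are those past the study's rule or an adjusted p under 0.05, the 2 highest and the lowest of each complex, the extremes of fold change in each complex among members with a mean of at least 10, the isoform sets, complex II and the members at 0. Genes named beyond these (those at P under 0.05, without overlap, near a gene with equal counts or apart between replicates) were chosen after their values were seen. The main fits were repeated with another pseudocount (5 or 0.5), a minimum mean of 10, median-ratio rescaling, quantile normalization, array quality weights, robust eBayes, a replicate block, 1 fit of all 9 libraries, edgeR 4.0.16 (quasi-likelihood) on approximate reads, each library left out, and subunits only. Members without near-equal neighbours, and the counts of groups that do not overlap under such changes, were added after seeing the data. Results of some items are not reported here.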

Additional observations from a re-analysis of the deposited data

How the results depend on the processing

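The median log2 fold changes of the members stayed within the spread of libraries under the alternatives run, at 0.01 to 0.04 (hTNFtg versus WT), -0.07 to -0.02 (infliximab-treated versus untreated) and -0.08 to -0.04 (infliximab-treated versus WT), and at -0.01 to 0.06, -0.07 to -0.02 and -0.10 to -0.02 with each library left out. The cause of the changes below was not tested unless named. In hTNFtg versus WT the 2 members raised were 1 with a pseudocount of 5 or 0.5, a mean of at least 10, quantile normalization or the replicate block, and 0 with array quality weights or edgeR, and the 0 lowered were 1 with robust eBayes or edgeR, where over the alternatives 2.62% to 7.78% of all genes were raised and 2.12% to 4.64% lowered. In infliximab-treated versus untreated SFs the 0 raised were 1 (Cox6a2) with a pseudocount of 0.5, robust eBayes or all 9 libraries (1.44% to 2.08% of all genes). Without the 6 members that have near-equal neighbours, which removes Ndufa4l2, the counts raised were 1 in hTNFtg versus WT and 0 in infliximab-treated versus WT, and 1 member lay above every WT library in hTNFtg. Of genes with a mean of at least 100, 2 members lay above every untreated library. With each library left out, members raised ranged over 0 to 3, 0 to 2 and 1 to 2 (2.47% to 5.35%, 1.07% to 2.59% and 3.46% to 4.93% of all genes) and lowered over 0 to 2, 0 to 3 and 0 to 2 (2.44% to 4.52%, 0.431% to 3.29% and 2.66% to 4.18%) in the order of comparisons above. Members above every library of the other group then ranged over 3 to 8, 5 to 11 and 4 to 15 (7.15% to 11.2%, 6.6% to 9.41% and 9.5% to 13.3% of all genes), and below over 4 to 7, 14 to 24 and 14 to 35 (8.51% to 11.7%, 5.2% to 10.5% and 10.1% to 14.4%), with fewer samples to separate. Among single genes, Uqcr11 was -0.011 with array quality weights (infliximab-treated versus untreated). With each library left out, hTNFtg versus WT ranged from -0.14 to 0.43 for Sdha, -0.91 to 0.0096 for Sdhd and -0.29 to 0.66 for Uqcrb, and infliximab-treated versus untreated from -0.22 to 1.46 for Sdhc and -0.39 to 0.18 for Sdha. The complex IV mean with infliximab was 10083 after median-ratio rescaling (10275 before). Over all genes, raised and lowered calls in hTNFtg versus WT were 956 and 867 in limma, 1484 and 935 in edgeR and 2218 and 1322 with array quality weights. Replicate numbers are shared between groups. Deviations of same-numbered libraries correlated at 0.29, -0.14 and 0.35 for hTNFtg and WT. They correlated at 0.07, 0.20 and 0.27 for treated and untreated, and at 0.10, -0.15 and 0.01 for treated and WT. Those of different numbers ranged from -0.49 to 0.24, -0.26 to 0.13 and -0.17 to 0.22 in the same order. Whether the numbers pair the samples cannot be told from these values, and the main fits took no pairing. With the replicate block 855 and 804, 374 and 231, and 968 and 730 genes were raised and lowered in the 3 comparisons (956 and 867, 426 and 267, and 1090 and 833 without), and 0 members had an adjusted p under 0.05 in limma. With that block Ucp2 had an adjusted p of 0.515 (hTNFtg versus WT) and 0.407 (infliximab-treated versus WT) in limma. Depth limits the members at or under 3 reads in hTNFtg replicate 1, the shallowest library.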

Other observations

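Near-equal counts of neighbouring genes were also found outside the respiratory chain. Of the 13600 genes with a mean of at least 10 normalized counts, 1413 (10.4%) had a gene within 1000 bases whose counts differed by at most 10% in sum, and for 1064 of these it lay on the other strand. Among the 89 respiratory chain genes at this level it was 6.

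Pseudogenes of these families were counted too. Atp5l2-ps read 1127 to 2510 in the 9 libraries, beside 1140 to 1909 for Atp5l, a subunit of the membrane part of ATP synthase. Atp5k-ps2 read 33 to 106 beside 69 to 234 for Atp5k, and Ndufab1-ps read 21 to 56 beside 86 to 293 for Ndufab1, the mitochondrial acyl carrier protein. Whether reads of a gene and of its processed copies were kept apart was not tested.

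In infliximab replicate 3 the 5 hepatocyte markers summed to 549, with Alb at 265, against 10 to 34 in the other 8 libraries. The sample labels do not mention such cells.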
